A study of Mus musculus with 12 samples.

Results

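The GBP and IRG genes encode interferon-inducible GTPases, and 10 of them were examined here, namely Gbp2, Gbp3, Gbp5 and Gbp7 of the guanylate-binding proteins and Irgm1, Irgm2, Igtp, Iigp1, Ifi47 and Tgtp1 of the immunity-related GTPases. A gene was taken where its symbol was equal to the name of an entry in the expression tables. Of 43280 entries in the table of the IDH2 experiment, 10 were these genes, and of 23930 entries in the table of the 2-HG experiment, 7 were. MEF cells, which are fibroblasts from C57BL/6 embryos at embryonic day 13.5 that had become immortal during passage, were profiled in 4 groups of 3 libraries. 2MUT cells stably expressed a mutant of human IDH2 with a 3×FLAG tag from the retroviral vector pMXs-puro, and Control cells carried that vector without an insert. Both were populations selected with puromycin, and all 6 libraries of this experiment therefore share the vector and the selection. 2-HG(+) cells were exposed for 24 h to a cell-permeant form of 2-HG at 300 μM. 2-HG(-) cells received DMSO according to the labels, whereas the text of the study calls them non-treated. No source used here says whether the 3 libraries of a group came from separate cultures, and the p-values measure only the spread between these libraries.

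GBPs and IRGs are among the genes that interferon-γ raises most in mouse cells. The large GBPs and the smaller IRGs assemble on vacuoles that hold parasites or bacteria and on free bacteria, and they help to break these open and to start inflammasome signalling. Their transcription is driven through gamma-activated sites, through interferon-stimulated response elements, which a complex with STAT2 and IRF9 binds, and by IRF1, which binds similar elements. Fibroblasts respond to interferon-γ in this way as macrophages do.

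Gbp5, Gbp7, Gbp3 and Gbp2 lie in this order on the forward strand of chromosome 3 of GRCm38 in the GENCODE M21 annotation, from 142493978, where Gbp5 starts, to 142638008, where Gbp2 ends, with Gbp2b between Gbp3 and Gbp2. Irgm1, Tgtp1, Ifi47, Igtp and Irgm2 lie on chromosome 11. Irgm1 spans 48861968 to 48871683 on the reverse strand and Igtp 58199556 to 58207591 on the forward strand. The annotated Igtp gene overlaps that of Irgm2, on the same strand, and the positions of the amplified targets were not used here. Of the 50-base words in the longest transcript, 12.8% of Gbp7 and 12.3% of Igtp also occurred in another annotated gene, against 0% to 4.8% for Gbp2, Gbp3, Gbp5 and Irgm1. For Tgtp1 this share was 91.4%, almost all of it shared with Tgtp2, so reads of these copies could not be told apart over most of their length.

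Promoter sequences of 9 of the 10 genes were available from RefSeq (GRCm38.p6), as windows from 250 bases before to 50 bases after an annotated transcript start. Those of the 6 genes measured below are shown because these genes were lower together in the 2-HG experiment, and that of Irgm2, which was not measured, because it is a close copy of that of Igtp. The core of the response element was searched as GAAANNGAAA, or TTTCNNTTTC on the other strand, and the core of the gamma-activated site as TTCNNNGAA, which reads the same on both strands. The stretches below have 100 bases each, are written 5′ to 3′ on the strand of the gene, and carry the response element core in capitals. In order they are chr3:142620559-142620658, chr3:142559957-142560056, chr3:142496724-142496823 and chr3:142530238-142530337 on the forward strand, chr11:48871393-48871492 on the reverse strand, and chr11:58199477-58199576 and chr11:58214868-58214967 on the forward strand.
Gbp2: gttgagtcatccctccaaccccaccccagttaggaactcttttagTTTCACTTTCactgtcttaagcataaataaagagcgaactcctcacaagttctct
Gbp3: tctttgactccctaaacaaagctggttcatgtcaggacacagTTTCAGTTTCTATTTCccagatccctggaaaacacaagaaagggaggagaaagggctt
Gbp5: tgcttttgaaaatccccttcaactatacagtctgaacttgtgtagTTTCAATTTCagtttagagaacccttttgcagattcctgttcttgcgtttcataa
Gbp7: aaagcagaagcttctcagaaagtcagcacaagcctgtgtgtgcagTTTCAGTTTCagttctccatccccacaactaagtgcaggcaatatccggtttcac
Irgm1: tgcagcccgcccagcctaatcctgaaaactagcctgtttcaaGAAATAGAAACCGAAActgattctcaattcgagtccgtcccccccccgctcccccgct
Igtp: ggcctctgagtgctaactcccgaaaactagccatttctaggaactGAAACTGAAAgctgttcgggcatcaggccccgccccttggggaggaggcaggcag
Irgm2: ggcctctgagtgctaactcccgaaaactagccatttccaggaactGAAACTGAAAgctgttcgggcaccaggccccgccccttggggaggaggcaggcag

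The response element core was present in a window of 8 of these 9 genes, the exception being Ifi47, whereas 3.99% of the 27025 genes with a window held it. The 9 genes had 10 windows, and the second window of Gbp3 held neither core. Gbp3 and Irgm1 each held a pair of overlapping matches. In Gbp2 the match began 59 bases before the start, in Gbp7 53, in Igtp 34 and in Irgm1 30 and 24 bases before it, while in Gbp5 it lay 165 bases before the start. The gamma-activated site core was found in Gbp5, Gbp7, Tgtp1, Igtp and Irgm2, against 9.55% of all genes with a window. Igtp and Irgm2 are close copies here, with 184 of 270 aligned bases of their windows identical (68.1%). For Gbp7, Irgm2 and the second window of Gbp3 the start used by RefSeq was not matched in a GENCODE transcript. A match describes letters in a window and was not measured as binding.

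**Figure D1:**
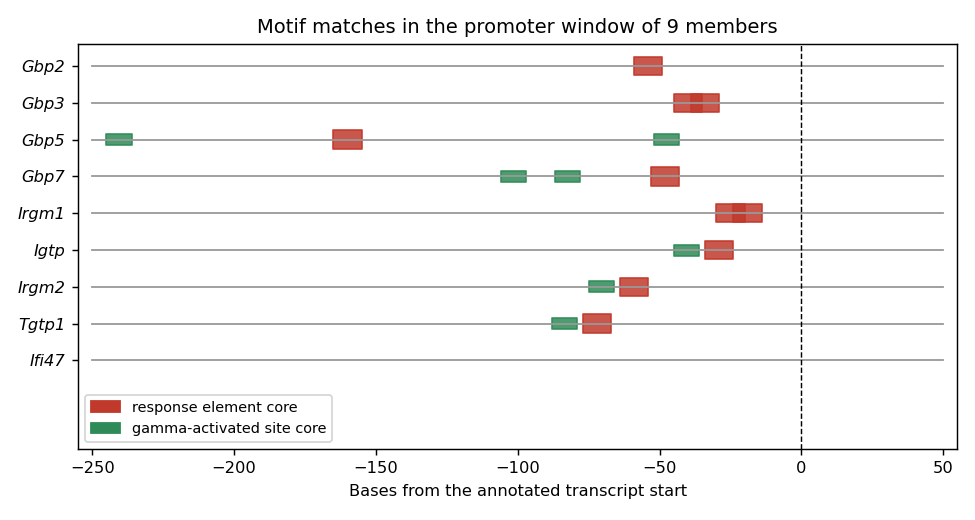
Positions of motif matches in the promoter windows of 9 GTPase genes. The horizontal axis gives bases from the annotated transcript start, the dashed line marks the start, tall red boxes are response element cores and short green boxes gamma-activated site cores. In 7 of the 8 genes with a response element core the match begins within 77 bases of the start, and Ifi47 has none.

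Transcripts were measured with Ion AmpliSeq libraries, which read 1 short amplified target per gene, and given as RPM, a gene's reads scaled to a total of 1000000 reads on genes. A library held 6472439 to 7313602 reads in the IDH2 experiment and 14959318 to 18363768 reads in the 2-HG experiment, so 3 reads, taken as the limit of detection, were worth 0.410 to 0.464 RPM and 0.163 to 0.201 RPM. Control 3 stood apart: 60 of 7867 entries compared were more than 5-fold under the lowest of the other 5 libraries, against 0 to 9 such entries in each other library. Only entries with a mean of at least 10 RPM over the other 5 libraries were compared. Of the GTPase genes, Gbp2, Gbp3 and Gbp7 were that high for Control 3, and the others could not be flagged. None of these 3 was among the 60 entries, but the relative Gbp4 and the receptor gene Ifngr1 were. A share of 57.1% of the entries of the IDH2 experiment was listed at 0, and Gapdh, a glycolytic gene that every cell uses, had only 1.03 to 3.28 RPM there, so a zero or low entry says no more than that the gene was listed so. The endogenous mouse Idh2 was 77.3 ± 5.54 RPM in the Control group and 49.6 ± 6.39 RPM in 2MUT cells (SD, n = 3), which does not check the human transgene. Fibroblast markers summed to 13380 RPM or more in every library, while endothelial markers summed to at most 3.09 RPM and epithelial markers to at most 0.600 RPM.

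Of the 10 genes, 6 passed the filter on low values, a mean of at least 1 RPM over the 6 libraries of a comparison, and the same genes passed in both experiments: Gbp2, Gbp3, Gbp5, Gbp7, Irgm1 and Igtp. Irgm2, Iigp1 and Tgtp1, a regulatory IRG and a pair of effector IRGs, were listed at 0 in all 6 libraries of the IDH2 experiment, and no entry of the 2-HG table carried their symbols. Ifi47, another effector IRG, was listed at 0 in the IDH2 experiment and had 3 reads in all 2-HG(-) libraries together and 1 read in all 2-HG(+) libraries together, so no difference was detectable at this depth. The effector IRGs were thus unmeasured, and the results below concern 4 GBPs and the regulatory IRGs Irgm1 and Igtp.

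Whether 2-HG added to the medium changed these genes was examined first. All 6 measured genes were lower in 2-HG(+) than in 2-HG(-) cells, by 2.58-fold for Irgm1 to 6.95-fold for Gbp7. Among all 10384 genes tested, 16.7% were lower and 16.1% higher. In each of the 6 genes every 2-HG(+) library lay under every 2-HG(-) library, as did 24.1% of all genes. The median log2 fold change of the 6 genes was -1.93, beside -0.02 over all genes.

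Gbp7, a GBP linked to assembly of the phagocyte oxidase, was 28.2, 26.8 and 31.7 RPM in 2-HG(-) libraries 1 to 3 and 4.23, 3.61 and 4.64 RPM in 2-HG(+) libraries 1 to 3. The groups were far apart, and no gene of the 6 had a larger fold. The log2 fold change was -2.54 (SE 0.14, limma adjusted p = 2.4e-06).

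Gbp3, its neighbour in the cluster, was 185.0, 178.2 and 190.7 RPM without 2-HG and 36.7, 43.8 and 42.3 RPM with it. The spread within each group was small next to the gap between them. Its level was 4.51-fold lower, with a log2 fold change of -2.15 (SE 0.10, limma adjusted p = 1.6e-06).

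Gbp2, a prenylated GBP that coats pathogen vacuoles, was 190.7, 231.6 and 254.0 RPM in the 2-HG(-) libraries and 68.5, 69.7 and 66.8 RPM in the 2-HG(+) libraries. The 2-HG(-) libraries varied more than the 2-HG(+) libraries, and the groups did not overlap. The level was 3.30-fold lower, with a log2 fold change of -1.70 (SE 0.12, limma adjusted p = 9.1e-06). Gbp2 belongs to the genes that the study itself listed, from these libraries, as lower in both experiments, so its direction here is not independent evidence.

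Gbp5, a prenylated GBP linked to inflammasome activation, was the most scattered of the 6 in 2-HG(-) cells, with 12.1, 15.8 and 7.93 RPM, and nearly constant in 2-HG(+) cells, with 2.84, 2.89 and 2.74 RPM. Even the lowest of the former, 2-HG(-) 3, lay above all 2-HG(+) libraries. The log2 fold change was -1.71 (SE 0.21, limma adjusted p = 0.00032), with a 4.23-fold lower mean.

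Among the IRGs, Igtp, which sits on internal membranes and holds effector IRGs inactive, was 23.8, 25.1 and 25.4 RPM without 2-HG and 5.02, 4.57 and 4.90 RPM with it. It was 5.13-fold lower, with tight values on both sides (log2 fold change -2.14, SE 0.12, limma adjusted p = 3.1e-06). Irgm1, a regulator of the same kind that is also needed for resistance to mycobacteria, was 53.9, 47.1 and 54.8 RPM without 2-HG and 17.2, 20.1 and 23.1 RPM with it. Its fall was the smallest of the 6 genes, 2.58-fold, with a log2 fold change of -1.33 (SE 0.13, limma adjusted p = 8.4e-05). In these bulk samples, fewer cells that express a gene and less RNA per cell cannot be told apart.

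**Figure D2:**
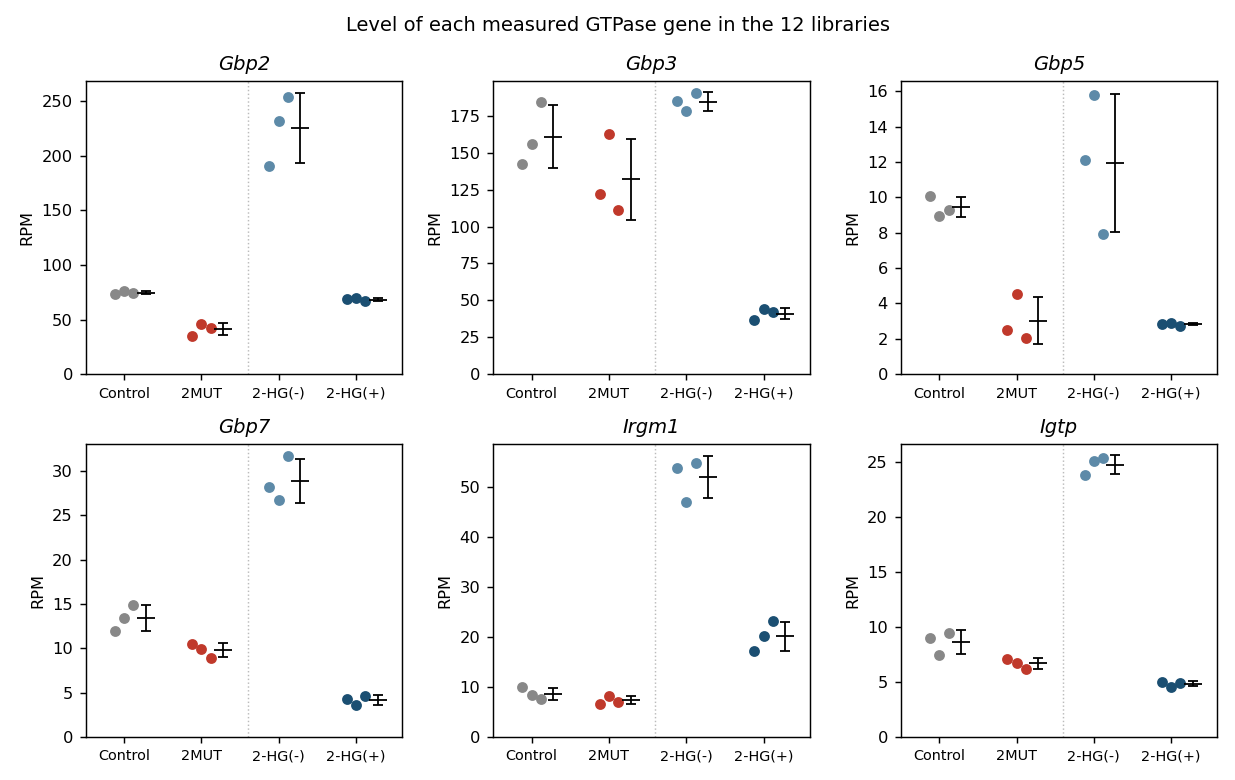
RPM of Gbp2, Gbp3, Gbp5, Gbp7, Irgm1 and Igtp in the 12 libraries, with 1 point per library and the mean ± SD of 3 libraries beside the points. Vertical axes start at 0 and differ between genes, and the dotted line separates the experiments, whose tables were normalized separately. With 2-HG all 6 genes drop, for example Gbp7 from 28.9 to 4.16 RPM, while in 2MUT cells the groups of Gbp3 and Irgm1 overlap with those of the Control.

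The same genes were then compared between 2MUT and Control cells. Of the 6 genes, Gbp2 and Gbp5 were lower in 2MUT than in Control cells, and the other 4, each with a mean under that of the Control, did not pass the test. Over all 11065 genes tested, 17.3% were lower and 16.5% higher. The median log2 fold change of the 6 genes was -0.37, beside 0.01 over all genes.

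Gbp5 was 10.1, 8.97 and 9.30 RPM in Control 1 to 3 and 2.47, 4.54 and 2.06 RPM in 2MUT 1 to 3. Each 2MUT library lay well under each Control library, 2MUT 2 being the highest of the 3. The mean was 3.12-fold lower (log2 fold change -1.42, SE 0.24, limma adjusted p = 0.0011).

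Gbp2 was 73.2, 76.4 and 74.8 RPM in the Control libraries and 35.2, 46.3 and 42.5 RPM in the 2MUT libraries. The Control libraries were nearly equal, and the groups did not overlap. The mean was 1.81-fold lower (log2 fold change -0.85, SE 0.13, limma adjusted p = 0.00048).

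Gbp7 and Igtp did not pass the test although their groups did not overlap. Gbp7 was 12.0, 13.4 and 14.9 RPM in the Control group and 10.5, 9.96 and 8.94 RPM in 2MUT libraries (log2 fold change -0.42, 95% interval -0.79 to -0.05, limma adjusted p = 0.079). Igtp was 9.03, 7.41 and 9.43 RPM in the Control group and 7.11, 6.74 and 6.19 RPM in 2MUT libraries (log2 fold change -0.32, 95% interval -0.72 to 0.08, limma adjusted p = 0.20). With Gbp2 and Gbp5, 4 of the 6 genes had every 2MUT library under every Control library, as had 24.0% of all genes.

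Gbp3 and Irgm1 overlapped between the groups. Gbp3 was 142.5, 155.7 and 184.5 RPM in the Control group and 122.1, 162.9 and 111.0 RPM in 2MUT libraries, 2MUT 2 lying among the Control libraries. Its log2 fold change was -0.29 (95% interval -0.62 to 0.03, limma adjusted p = 0.15), and without 2MUT 2 it was -0.46 (limma adjusted p = 0.036), so that this library decided the call. Irgm1 was 9.91, 8.40 and 7.52 RPM in the Control group and 6.64, 8.20 and 7.02 RPM in 2MUT libraries. Its log2 fold change was -0.21 (95% interval -0.62 to 0.20, limma adjusted p = 0.41).

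The changes were then compared between the experiments, as the change in 2MUT cells minus the change with 2-HG over all 12 libraries. For 5 of the 6 genes the change was less negative by the test in 2MUT cells than with 2-HG, and a difference in this direction was called for 19.9% of the 9612 genes tested. Of these 5, only Gbp2 was itself called lower in 2MUT cells. The difference was 2.12 for Gbp7 (SE 0.20, limma adjusted p = 2.3e-06), 1.85 for Gbp3 (SE 0.20, limma adjusted p = 7.3e-06) and 1.82 for Igtp (SE 0.19, limma adjusted p = 5.8e-06) on the log2 scale. It was 1.12 for Irgm1 (SE 0.21, limma adjusted p = 0.00083) and 0.85 for Gbp2 (SE 0.17, limma adjusted p = 0.0015). Gbp5 was the exception, with a difference of 0.29 (95% interval -0.43 to 1.01, limma adjusted p = 0.53), an interval that leaves room for a difference of up to 1.01. This value moved with single libraries, to 0.035 without 2MUT 2, 0.079 without 2-HG(-) 2, 0.46 without 2MUT 3 and 0.53 without 2-HG(-) 3, and was called in none of these refits (limma adjusted p = 0.21 to 0.94). The median over the 6 genes was 1.47, beside 0.05 over all genes.

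The RPM listed for the 2 reference groups also differed. Actb, an actin gene, averaged 6860 RPM over the IDH2 experiment and 21000 RPM over the 2-HG experiment. Ratios between the experiments therefore describe the listed values and do not measure a difference between the cells. Between tables that were normalized separately, the mean in 2-HG(-) was 6.03 times that in Control for Irgm1, 3.01 times for Gbp2, 2.87 times for Igtp and 2.15 times for Gbp7, but 1.27 times for Gbp5 and 1.15 times for Gbp3. With 2-HG, Gbp2 reached 68.4 ± 1.46 RPM, under its Control level of 74.8 ± 1.56 RPM, and Irgm1, at 20.1 ± 2.94 RPM, remained above its Control level of 8.61 ± 1.21 RPM. Whether these levels had a part in the size of the changes was not tested.

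Other genes of the GBP and IRG families were taken from a list of 20. In the 2-HG experiment 5 passed the filter. Gm12185 passed only through the 2-HG(-) group, where it was high, and the other 4 were lower, with a median log2 fold change of -1.78, beside 16.7% of all genes and a median of -0.02. Gbp9 was 115.2, 142.1 and 130.8 RPM without 2-HG and 39.4, 35.8 and 35.6 RPM with it (log2 fold change -1.78, SE 0.11, limma adjusted p = 5e-06). Gbp2b, which lies between Gbp3 and Gbp2, was 46.0 ± 6.31 RPM without and 12.5 ± 1.40 RPM with 2-HG (log2 fold change -1.79, SE 0.14, limma adjusted p = 2e-05). Gbp4 was 55.1 ± 7.18 RPM without and 13.6 ± 2.54 RPM with 2-HG (log2 fold change -1.95, SE 0.15, limma adjusted p = 2e-05). Gm12185, an IRG gene model whose annotation overlaps Tgtp1, had 175 reads over the 2-HG(-) libraries and 1 read over the 2-HG(+) libraries. The smallest change was that of Irgq, an IRG-like gene not known to be driven by interferon, with 11.4 ± 0.869 RPM without and 7.88 ± 0.603 RPM with 2-HG (log2 fold change -0.49, limma adjusted p = 0.019), and this call was lost without 2-HG(-) 1 or 2-HG(-) 3 (limma adjusted p up to 0.068).

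In 2MUT cells 0 of the 4 list genes that passed the filter were called by limma, as by edgeR and DESeq2, and 0 had an unadjusted p under 0.05, beside 17.3% of all genes lower and 16.5% higher. Of the 4, Gbp6 passed the filter only through the 2MUT group, with 0.822 ± 0.616 RPM in Control and 1.56 ± 0.30 RPM in 2MUT libraries (limma adjusted p = 0.19). Gbp9 was level, with 36.4, 36.5 and 37.6 RPM in Control and 39.9, 32.9 and 38.7 RPM in 2MUT libraries, and its change differed from that with 2-HG by 1.78 on the log2 scale (SE 0.16, limma adjusted p = 1.4e-06). Gbp4 was 67.2 and 76.2 RPM in Control 1 and 2 but 1.64 RPM in Control 3, the library that stood apart, and 30.3, 29.6 and 34.1 RPM in the 2MUT libraries. With all libraries its log2 fold change was 0.42 (limma adjusted p = 0.77), and without Control 3 it was -1.17 (SE 0.15, limma adjusted p = 1.6e-05). Its direction therefore rested on that library. The log2 fold change of Irgq, 0.43, was not called with all libraries but was 0.64 without Control 2 (limma adjusted p = 0.047).

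**Figure D3:**
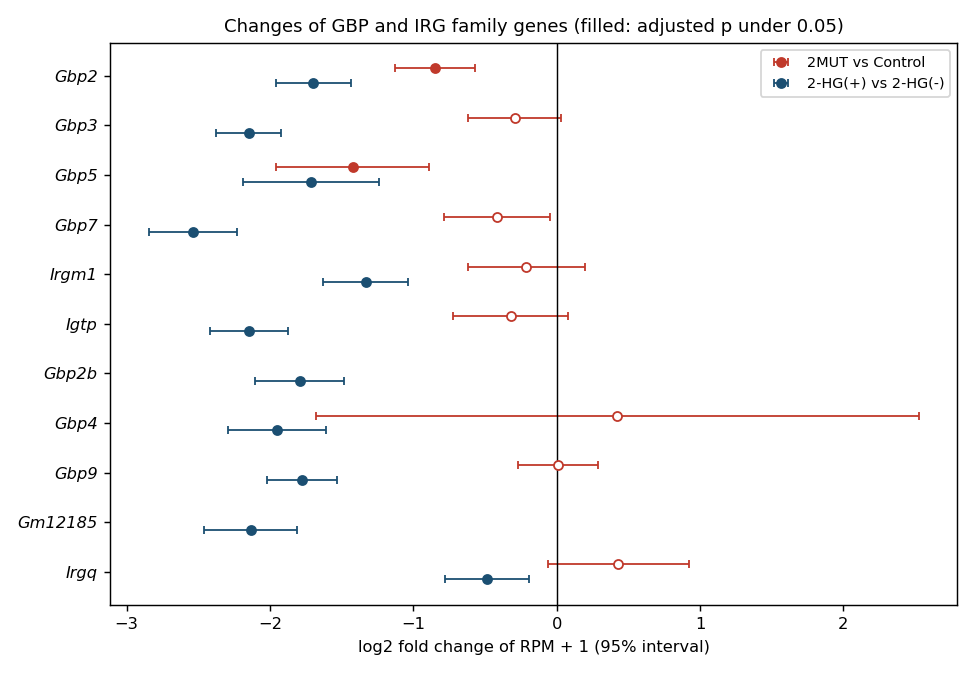
Log2 fold change of RPM + 1 for 11 GBP and IRG family genes in 2MUT against Control cells (red) and in 2-HG(+) against 2-HG(-) cells (blue), with 95% intervals from limma. Filled points passed an adjusted p of 0.05, and genes without a red point were not tested in the IDH2 experiment. The blue points lie under 0, that of Gm12185 for a gene that passed the filter only through the 2-HG(-) group, red points are filled only for Gbp2 and Gbp5, and the wide red interval of Gbp4 comes with the low value in Control 3.

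The genes that carry interferon signals were taken from a list of 19 receptors, kinases and transcription factors. With 2-HG 8 of the 12 tested were lower and 0 higher by limma, edgeR and DESeq2 alike, and 10 were lower and 0 higher at an unadjusted p under 0.05. With a library removed 6 to 8 were lower, and the call of Ifnar2 held in 2 of the 6 refits. Over all genes 16.7% were lower and 16.1% higher. The list's median log2 fold change was -0.53, beside -0.02. Irf7, a transcription factor of the type I interferon response, fell from 14.2 ± 1.26 to 1.12 ± 0.199 RPM (log2 fold change -2.84, SE 0.15, limma adjusted p = 1.9e-06). Irf9, the DNA-binding subunit of the response element complex, was 57.2, 39.9 and 47.1 RPM without 2-HG and 8.59, 9.56 and 10.7 RPM with it (log2 fold change -2.20, SE 0.15, limma adjusted p = 1e-05). Stat2, a further subunit of that complex, was 17.2, 16.4 and 18.0 RPM without 2-HG and 4.17, 6.31 and 6.93 RPM with it (log2 fold change -1.44, SE 0.17, limma adjusted p = 0.00026). Genes of the response element complex were thus lower together with the GTPase genes in the 2-HG experiment.

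In 2MUT cells these 3 genes were not called. Their log2 fold changes were -0.20 for Irf7, 0.08 for Irf9 and 0.11 for Stat2. For each of them the change differed between the experiments, by 2.64 for Irf7 (limma adjusted p = 5.9e-07), 2.28 for Irf9 (limma adjusted p = 1.9e-06) and 1.55 for Stat2 (limma adjusted p = 0.00016) on the log2 scale.

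Irf1, which activates GBP genes, was called lower in both experiments. It was 215.4, 211.3 and 188.4 RPM in the Control group and 105.5, 110.4 and 115.0 RPM in 2MUT libraries, which is 1.86-fold lower (log2 fold change -0.89, SE 0.10, limma adjusted p = 7.1e-05). With 2-HG it went from 360.8 ± 56.1 to 245.5 ± 43.1 RPM (log2 fold change -0.56, SE 0.15, limma adjusted p = 0.018), and this call was lost without 2-HG(-) 2, 2-HG(-) 3, 2-HG(+) 2 or 2-HG(+) 3 (limma adjusted p up to 0.058). The changes of Irf1 did not differ by the test between the experiments (difference -0.33, 95% interval -0.73 to 0.07, limma adjusted p = 0.18).

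In 2MUT cells 3 of the 13 list genes tested were lower (Irf1, Ifnar2 and Batf2) and 2 were higher (Ifnar1 and Jak2), with a median log2 fold change of -0.04. These counts are near the 17.3% lower and 16.5% higher of all genes. The call of Batf2 was lost without 2MUT 1 or 2MUT 2, and that of Jak2 without any of Control 1, Control 2, 2MUT 2 or 2MUT 3. With 2-HG some receptor genes were also lower. Ifngr2, a subunit of the interferon-γ receptor, was 174.9 ± 4.75 RPM without and 119.8 ± 4.39 RPM with 2-HG (log2 fold change -0.54, limma adjusted p = 0.0013). Ifnar1, of the type I receptor, was 208.1 ± 17.3 RPM without and 148.4 ± 16.7 RPM with 2-HG (log2 fold change -0.49, limma adjusted p = 0.0088), whereas it rose from 151.7 ± 12.2 to 197.9 ± 4.38 RPM in 2MUT cells (log2 fold change 0.39, limma adjusted p = 0.010). Ifngr1 was 74.6, 67.9 and 3.56 RPM in the Control libraries, and its log2 fold change in 2MUT cells went from 1.35 to 0.02 without Control 3, not called in either fit (limma adjusted p = 0.22 and 0.93).

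Interferon transcripts themselves were close to the limit of detection. Ifng had at most 2 reads in any group. Ifnb1, the type I interferon that fibroblasts make, had 20 reads over the 2-HG(-) libraries and 3 over the 2-HG(+) libraries, and 3 over the Control and 15 over the 2MUT libraries. It was filtered out in both experiments and was not tested.

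**Figure D4:**
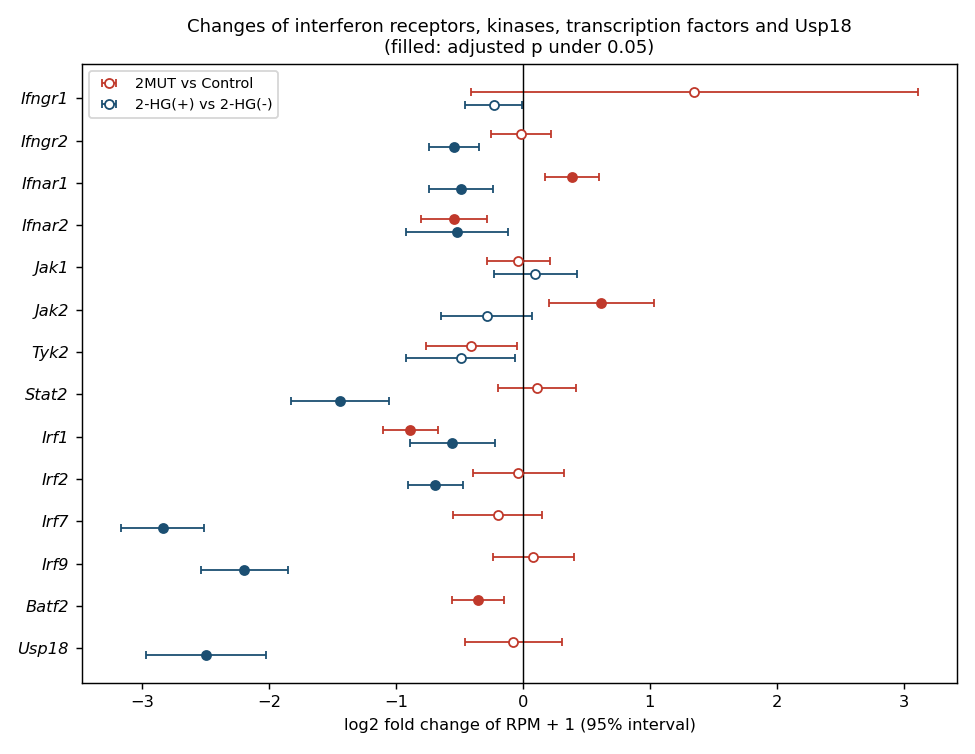
Log2 fold change of RPM + 1 for the tested genes of interferon signalling and for the inhibitor Usp18 in 2MUT against Control cells (red) and in 2-HG(+) against 2-HG(-) cells (blue), with 95% intervals from limma and filled points for an adjusted p under 0.05. The blue points of Irf7, Irf9 and Stat2 lie at -2.84, -2.20 and -1.44 and the red points of these genes near 0, Irf1 is lower in both comparisons, and Usp18 passed the filter in the 2-HG experiment only through the 2-HG(-) group.

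Among 8 negative regulators of this signalling, 6 were tested in each experiment. In the 2-HG experiment Usp18 and Ptpn6 passed the filter only through the 2-HG(-) group, where they were high, so their values are a description, and none of the other 4 was called by limma. Usp18, which binds the type I receptor and is itself induced by interferon, was 8.33, 9.29 and 5.94 RPM without 2-HG and 0.264, 0.481 and 0.980 RPM with it. In 2MUT cells it was 15.2 ± 1.62 RPM in the Control group and 14.4 ± 2.49 RPM in 2MUT libraries and was not called. Ptpn6 was 1.44 ± 0.384 RPM without and 0.705 ± 0.192 RPM with 2-HG. In 2MUT cells 2 of 6 regulators were higher by limma, Pias1 and Ptpn11, beside 16.5% of all genes, and 1 by edgeR and by DESeq2. They kept their calls in 1 and 3 of the 6 refits with a library removed.

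Other genes induced by interferon were taken from a list of 18, of which 14 were tested with 2-HG. Mx2, Rsad2 and Oas1a passed the filter only through the 2-HG(-) group, where they were high. The other 11 were lower, with a median log2 fold change of -1.40, beside 16.7% of all genes and a median of -0.02. Of these, Ifit2 kept its call in 2 of 6 refits with a library removed (limma adjusted p up to 0.12). Ifit1 and Oasl2, which act against viral RNA, were 12.0-fold and 13.3-fold lower. In 2MUT cells Mx1 passed the filter only through the Control group, and of the other 13 genes tested 9 were lower and 3 higher, with a median of -0.84, beside 17.3% and 16.5% of all genes. The calls that held in all 6 refits with a library removed were those of Ifi44, Oasl2, Bst2, Psmb8, Psmb9, Tap1 and H2-K1, all lower, while those of Ifit1 (held in none), Oas1a, Ifit2, Ddx58 and B2m depended on single libraries. Several of these 7, including Psmb8, Tap1 and H2-K1, which serve in antigen presentation, were also in the list the study drew from these libraries. Psmb8, an immunoproteasome subunit, was 12.9, 16.4 and 14.5 RPM in the Control group and 1.08, 1.61 and 1.10 RPM in 2MUT libraries (log2 fold change -2.79, SE 0.21, limma adjusted p = 4.1e-06), and its fall in 2MUT cells was larger than with 2-HG by 1.09 on the log2 scale (limma adjusted p = 0.0024). In this list H2-K1 had the same order as Psmb8. Ifit1, Ifi44, Oasl2 and Bst2 had a less negative change in 2MUT cells than with 2-HG, as had the 5 GTPase genes whose changes differed. Ddx58, B2m and Ifit2 moved in opposite directions, being the 3 genes called higher in 2MUT cells and lower with 2-HG. The differences of these genes ran from 0.78 for Bst2 to 3.03 for Ifit1 (limma adjusted p up to 0.0021). The change of Tap1 did not differ by the test (0.045, limma adjusted p = 0.88).

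Genes that work with the GTPases were examined from 3 further lists. Of 9 inflammasome and caspase genes, 6 fell under the filter in each experiment, namely Casp1, Aim2, Nlrp3, Nlrc4, Pycard and Il1b. Of the 3 tested, 2 were lower in each experiment, beside 17.3% of all genes in 2MUT cells and 16.7% with 2-HG. Gsdmd, the pore-forming protein cut by inflammatory caspases, was 12.9, 14.8 and 12.6 RPM in the Control group and 5.10, 6.15 and 7.16 RPM in 2MUT libraries (log2 fold change -1.02, SE 0.19, limma adjusted p = 0.0016), and 11.6 ± 1.04 RPM without and 6.35 ± 1.37 RPM with 2-HG (log2 fold change -0.79, SE 0.17, limma adjusted p = 0.0056). Casp4, the caspase that senses bacterial lipopolysaccharide, was lower in 2MUT cells, with 89.4 ± 3.20 and 60.3 ± 7.34 RPM (log2 fold change -0.57, limma adjusted p = 0.0038), and was not called with 2-HG. The cytokine gene Il18 was lower with 2-HG (log2 fold change -0.63, limma adjusted p = 0.0049).

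Of the genes for the conjugation machinery of autophagy, which guides IRGs and GBPs to vacuoles, 2 of 8 tested were lower in 2MUT cells and 1 of 9 with 2-HG, beside 17.3% and 16.7% of all genes. Gabarap was 986.7 ± 148.5 RPM in the Control group and 692.9 ± 20.8 RPM in 2MUT cells (log2 fold change -0.50, limma adjusted p = 0.0053), and the calls of Gabarapl1 did not hold in every refit with a library removed. Atg7 was among the genes low in Control 3, and its log2 fold change in 2MUT cells was 0.68 (limma adjusted p = 0.54) with that library and -0.66 (limma adjusted p = 0.0032) without it. Of 5 genes for enzymes of protein prenylation and of the processing steps after it, 1 was higher in 2MUT cells, Fnta, from 48.1 ± 4.98 to 73.0 ± 7.59 RPM (log2 fold change 0.59, limma adjusted p = 0.0044). With 2-HG 1 was lower by limma, Pggt1b, a call held in 1 of the 6 refits with a library removed, and 1 was higher by edgeR and by DESeq2. Over all genes 16.5% were higher in 2MUT cells and 16.7% lower with 2-HG.

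Markers of other cells were read beside these results. The 10 markers of macrophages and leukocytes summed to 24.6 to 29.3 RPM in Control and 49.8 to 62.1 RPM in 2MUT libraries, and to 54.0 to 57.5 RPM in 2-HG(-) and 37.9 to 43.1 RPM in 2-HG(+) libraries. In 2MUT cells Cd14 was higher, with 12.2 ± 2.24 RPM in Control and 38.5 ± 5.60 RPM in 2MUT libraries, while Lyz2, with 0.560 and 2.62 RPM, passed the filter only through the 2MUT group. With 2-HG 2 of 4 tested were lower, beside 16.7% of all genes, namely Cd74 and Cd68, the latter in only 3 of 6 refits with a library removed. Of the defining markers, Ptprc, Tyrobp, Fcer1g, Itgam and Adgre1 had at most 3 reads in any group where they were listed, with Tyrobp and Fcer1g at 0 in the IDH2 experiment and Ptprc at 0 in the 2-HG experiment. Csf1r had 4 reads over the Control and 26 over the 2MUT libraries, which did not overlap, and 63 over the 2-HG(-) and 54 over the 2-HG(+) libraries. Fibroblast markers summed to 15040 to 17010 RPM in Control and 13380 to 13820 RPM in 2MUT libraries, and to 21650 to 23290 RPM in 2-HG(-) and 15260 to 16280 RPM in 2-HG(+) libraries. These sums are mostly collagen, Vim and Fn1 reads, and the members did not move as a unit. In 2MUT cells 7 of 9 tested were lower by limma, beside 17.3% of all genes, 6 by edgeR and 5 to 6 in the refits with a library removed, and Fn1 was higher (log2 fold change 0.43, limma adjusted p = 0.011). With 2-HG 5 of 9 were lower, beside 16.7% of all genes, Thy1 was higher (log2 fold change 0.71, limma adjusted p = 0.014), and Col1a1, Vim and Fn1 were not called. The part of these markers in the results was not tested.

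The genes whose pattern was most like that of the GTPase genes were found among 9606 genes tested in both experiments. Log2 values were centred on the mean of the reference group of each experiment, Control or 2-HG(-). Likeness was the root mean square difference, over the 12 libraries, between a gene and the median of the 6 GTPase genes. The nearest 5 were Adamts5, a protease of the extracellular matrix (0.146), Il18bp, the secreted inhibitor of interleukin-18 (0.177), Phactr1, a regulator of actin and phosphatase (0.185), Clu, a secreted chaperone (0.196), and Pdgfrb, the receptor of platelet-derived growth factor (0.201), beside a median of 1.01 over the genes ranked. The 6 GTPase genes lay between 0.147 for Igtp and 0.577 for Gbp5. Adamts5 was 325.0 RPM in Control, 258.2 RPM in 2MUT, 131.7 RPM in 2-HG(-) and 36.8 RPM in 2-HG(+) cells on average. Il18bp was 12.9, 8.89, 9.82 and 1.92 RPM in the same order. These genes were chosen for their pattern, and their values are a description.

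The response element core was also counted in the windows of all genes. It was present in 7.24% of the 1313 genes with a window that were lower with 2-HG, 3.53% of the 1275 that were higher and 3.70% of the 7983 tested. In the IDH2 experiment these shares were 4.39% of lower, 4.02% of higher and 3.68% of tested genes. The gamma-activated site core was present in 9.60% of lower, 7.84% of higher and 8.31% of tested genes with 2-HG, and in 7.75%, 8.33% and 8.14% in the IDH2 experiment. No test was made on these shares. The 6 measured GTPase genes, all of which hold the core, are among the genes counted as lower with 2-HG.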

How the data were processed

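RNA-seq of 12 MEF libraries was analysed, in 4 groups of 3. The authors aligned Ion AmpliSeq reads with TMAP to the AmpliSeq mouse transcriptome reference, counted them per gene and deposited RPM in a table per experiment. The genome build behind that reference was not given in the sources used here. Groups come from the labels. Differential expression was tested within each table by limma 3.58.1 in R 4.3.3, with its trend option, after taking log2(RPM + 1). Genes under a mean of 1 RPM were left out. Benjamini-Hochberg adjusted p-values under 0.05, two-sided and over all genes tested, were called. Fold changes on this scale understate changes of low genes. Folds given as multiples are ratios of mean RPM. The changes were compared over all 12 libraries as a difference of contrasts. Values were whole multiples of 1 read in 100% of entries (tolerance 0.05 reads), and edgeR 4.0.16 and DESeq2 1.42.0 were run on the recovered reads. Further alternatives were 0.1 added before the logarithm, a filter at 10 RPM or none, a block for the replicate number, removal of each library, median-of-ratios scaling and a test without moderation. Replicates of every group differed by more than sampling noise. The scripts were tested on simulated data. Named genes are the 10 GTPase genes, members of the lists, and the 5 genes most like them. Some list genes are not reported here. Members and lists were chosen with earlier results of these data known. Motif and word searches used Python 3.11.15, and plots matplotlib 3.10.9.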

Additional observations from a re-analysis of the deposited data

Results flagged for a closer look

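The change in 2MUT cells differed from the change with 2-HG, by limma's test of the difference over 12 libraries, for 5 GTPase genes: by 0.85 for Gbp2, 1.85 for Gbp3, 2.12 for Gbp7, 1.12 for Irgm1 and 1.82 for Igtp on the log2 scale. The IDH2 mutant and added 2-HG differ also in duration, vector and selection, and the tables were normalized separately, so these cannot be told apart from the agents.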

How the results depend on the processing

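For the 6 measured genes the direction of every change, and every call but that of Gbp3 in 2MUT cells without 2MUT 2, was kept under the alternatives run. In the 2-HG experiment the gene values stayed on their side of the threshold in 83 of 83 refits, in the IDH2 experiment in 80 of 81, and for the difference in 117 of 117. With a filter at 10 RPM only 3 genes were left in the IDH2 experiment, of which 1 was lower, and 3 of 3 differed between the experiments. The median log2 fold change with 2-HG, -1.93, was -2.08 with 0.1 added before the logarithm, -2.14 with the filter at 10 RPM, -2.11 with edgeR and -2.11 with DESeq2. With a library left out it ranged from -2.04 to -1.90. Same-numbered libraries showed no clear positive correlation of their deviations, with 0.07, 0.03 and 0.03 in the IDH2 experiment and -0.46, -0.16 and 0.06 in the 2-HG experiment. Pairs with unlike numbers were not examined, so a pairing under other numbers is not excluded. With a replicate block 2 genes were lower in 2MUT cells, 6 were lower with 2-HG and 5 differed, as without it. Ifi47, Ifnb1 and Ifng lay near the limit of detection, and 4 of the 10 genes gave no test.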
